A study of Homo sapiens with 4 samples.

Results

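The high mobility group (HMG) genes encode small, abundant proteins that bind chromatin without being histones. The 10 genes described here are the HMGA, HMGB and HMGN genes, 2, 3 and 5 in number, out of the 15575 genes counted in a knockdown of PRMT3, the type I protein arginine methyltransferase, in U251 cells. They, and the lists of related genes below, were taken by name, but with earlier results of these data known. HMGA1 was an exception: it was chosen by its measured values, because its counts in the 2 knockdown libraries disagreed. Its levels are therefore described and not tested, and every count of genes that passed a test is over the 9 other HMG genes.

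U251 is an established human glioblastoma line. The Ctrl cells received a lentiviral control shRNA, with the word pGreen in their titles, and the PRMT3-KD cells a lentiviral shRNA against PRMT3, for 72 h. Both groups are therefore transduced, and which PRMT3 shRNA the knockdown libraries carry is not given in the sources used here. Each group has 2 RNA-seq libraries of total RNA, named Ctrl 1 and 2 and PRMT3-KD 1 and 2, and nothing says that they came from separate cultures, so the p-values measure only the spread between these libraries, which may be technical.

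HMGA proteins bind the minor groove of AT-rich DNA through short AT-hook motifs, and HMGA2 is an embryonic gene that many tumors express again. HMGB proteins bend DNA through paired HMG boxes and end in an acidic tail; HMGB1 also leaves stressed cells and acts on receptors such as RAGE and TLR4, and HMGB2 is known for its high level in dividing cells. HMGN proteins bind the nucleosome itself, where they compete with linker histone H1 and loosen compact chromatin.

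The promoters of the HMG genes are shown first, to set the start sites of members that fell beside those of members that were not called. A window from 250 bases before to 50 bases after the start site (RefSeq, GRCh38.p14) was at hand for 8 of the 10 genes, in 12 windows; HMGA2 and HMGB2 had none in the table. Capitals mark 4 motifs searched on both strands. The CCAAT box (CCAAT) is known at promoters of cell cycle genes and bound by NF-Y. Next come the cell cycle homology region, CHR (TTTGAA or TTCGAA), and 3 E2F sites (TTCCCGC or TTGGCGC or TTCGCGC). The last is the E-box bound by MYC (CACGTG). No other motif was searched. Distances count from the start site, with minus signs before it. The 6 windows printed are HMGN2 and HMGN4, which were lower in PRMT3-KD, HMGN1 and HMGN3, which were not called, and the windows of HMGB1 and HMGB3 with the most CCAAT boxes.
HMGN2, chr1:26472190-26472489, + strand: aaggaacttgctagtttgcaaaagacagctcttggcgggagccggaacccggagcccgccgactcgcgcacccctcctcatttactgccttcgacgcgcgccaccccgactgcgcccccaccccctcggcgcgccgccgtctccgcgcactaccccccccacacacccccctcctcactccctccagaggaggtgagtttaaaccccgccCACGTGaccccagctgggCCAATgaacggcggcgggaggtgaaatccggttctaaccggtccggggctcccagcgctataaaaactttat
HMGN4, chr6:26538116-26538415, + strand: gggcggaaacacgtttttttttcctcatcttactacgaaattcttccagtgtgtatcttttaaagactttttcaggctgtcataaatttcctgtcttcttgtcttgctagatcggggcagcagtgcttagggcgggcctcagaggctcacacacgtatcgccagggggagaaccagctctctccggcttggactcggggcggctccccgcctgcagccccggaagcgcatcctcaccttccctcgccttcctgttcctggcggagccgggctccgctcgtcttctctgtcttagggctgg
HMGN1, chr21:39349039-39349338, - strand: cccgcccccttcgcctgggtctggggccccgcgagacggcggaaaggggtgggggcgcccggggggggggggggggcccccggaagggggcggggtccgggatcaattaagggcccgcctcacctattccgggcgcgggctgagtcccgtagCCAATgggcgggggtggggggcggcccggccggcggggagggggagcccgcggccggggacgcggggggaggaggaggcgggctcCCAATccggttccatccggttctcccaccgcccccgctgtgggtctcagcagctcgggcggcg
HMGN3, chr6:79234633-79234932, - strand: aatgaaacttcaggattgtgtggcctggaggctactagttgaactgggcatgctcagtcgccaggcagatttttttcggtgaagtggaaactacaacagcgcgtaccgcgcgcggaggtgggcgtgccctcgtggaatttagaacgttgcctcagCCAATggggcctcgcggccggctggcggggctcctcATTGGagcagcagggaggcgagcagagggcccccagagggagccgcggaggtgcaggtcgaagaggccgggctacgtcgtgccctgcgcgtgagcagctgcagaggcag
HMGB1, chr13:30465887-30466186, - strand: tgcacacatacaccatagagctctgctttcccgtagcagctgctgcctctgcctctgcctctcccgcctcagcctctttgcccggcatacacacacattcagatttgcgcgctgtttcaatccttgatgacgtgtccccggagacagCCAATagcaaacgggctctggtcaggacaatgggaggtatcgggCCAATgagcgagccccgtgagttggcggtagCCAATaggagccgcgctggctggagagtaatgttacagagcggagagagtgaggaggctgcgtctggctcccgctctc
HMGB3, chrX:150983085-150983384, + strand: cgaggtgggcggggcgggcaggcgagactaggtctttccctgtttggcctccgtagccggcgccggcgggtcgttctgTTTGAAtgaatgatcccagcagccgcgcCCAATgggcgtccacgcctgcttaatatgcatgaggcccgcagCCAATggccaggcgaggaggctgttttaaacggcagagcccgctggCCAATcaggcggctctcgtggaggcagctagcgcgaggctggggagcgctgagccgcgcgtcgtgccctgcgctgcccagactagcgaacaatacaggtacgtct

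A CCAAT box stood in 8 of the 12 windows, from 6 of the 8 genes, and in 34.6% of all 35116 promoter windows of the same length. The printed window of HMGB3 had 3 (from -144, -101 and -55) and so had that of HMGB1 (from -103, -59 and -28), with 1 more (from -115) in another HMGB1 window. HMGA1 had 1 in each of its 2 windows (from 38 and -146), HMGN1 had 2 (from -98 and -13), HMGN3 had 2 (from -95 and -59), and HMGN2 had 1 (from -22). HMGN4 and HMGN5 had none. The CHR letters were present in 2 of the 12 windows, 1 each of HMGB1 and HMGB3, against 16.4% of all windows. The E2F letters were in no window, against 11.0%. The E-box was in 1 window, that of HMGN2 (from -40), against 7.26%. All windows include genes not tested here. In the 14953 windows of genes tested, the shares were 34.9% for CCAAT, 12.2% for CHR, 16.0% for E2F and 9.0% for the E-box. Of the HMGN genes lower in PRMT3-KD, HMGN2 has a CCAAT box and HMGN4 has none. Of those not called, HMGN1 and HMGN3 have CCAAT boxes and HMGN5 has none. HMGB2, which fell furthest, had no window, and a link between motif and response was not tested.

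The libraries held 24804250 to 29756313 counts. PRMT3 itself had 535 and 535 counts in Ctrl and 77 and 45 in PRMT3-KD (log2 fold change -3.08, SE 0.314, edgeR adjusted p = 0.0177). The Ctrl libraries were almost the same and the PRMT3-KD libraries were not: the biological coefficient of variation, the spread between libraries beyond counting noise, was 0.0105 between the Ctrl libraries and 0.210 between the PRMT3-KD libraries. Of a list of 8 glioma markers, all were in the table and VIM, the mesenchymal intermediate filament, had 113123 to 149599 counts. GFAP, the astrocyte filament, was low, with 363 and 392 counts in Ctrl and 32 and 153 in PRMT3-KD. Of 12 markers of other brain cells, 5 were not in the table, among them RBFOX3, AIF1 and PECAM1, and PTPRC had 2 to 7 counts. Others were present. The neuronal markers SYT1 and SNAP25 had 278, 305, 363 and 398 counts, and 108, 94, 127 and 78. CDH5, an endothelial cadherin, had 140, 146, 129 and 722. In such bulk libraries fewer cells of a type and less RNA per cell cannot be told apart.

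Levels are given in CPM, the share of a library's counts that a gene holds, scaled between libraries by the trimmed mean of M-values (TMM). A gene was called when its edgeR quasi-likelihood p, adjusted by Benjamini-Hochberg over the 13172 genes with enough counts, was under 0.05 and its change over 1.5-fold. By this rule 3 of the 9 HMG genes fell in PRMT3-KD, HMGB2, HMGN2 and HMGN4, where 5.97% of all genes tested were lower. None of the 9 was called higher, where 4.97% of all genes were; at an unadjusted p under 0.05, whatever the fold, 1 of the 9 was higher and 5 were lower, where 19.1% and 18.5% of all genes were, and DESeq2 and limma-voom also called 0 higher and 3 lower. The median log2 fold change of the 9 genes was -0.51, beside 0.0055 for all genes tested.

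These calls rest on the closeness of the Ctrl libraries. Without Ctrl 1 or without Ctrl 2, edgeR called 0 of the 9 genes and 0 genes of the whole table, although 1842 and 1868 genes had an unadjusted p under 0.05. Without PRMT3-KD 1 it called 5 of the 9 lower, adding HMGA2 and HMGB1, and without PRMT3-KD 2 it called 3, where 12.2% of all genes were called lower in each of these fits. Every call named below, of a list gene too, is lost in the same way when a Ctrl library is left out.

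**Figure D1:**
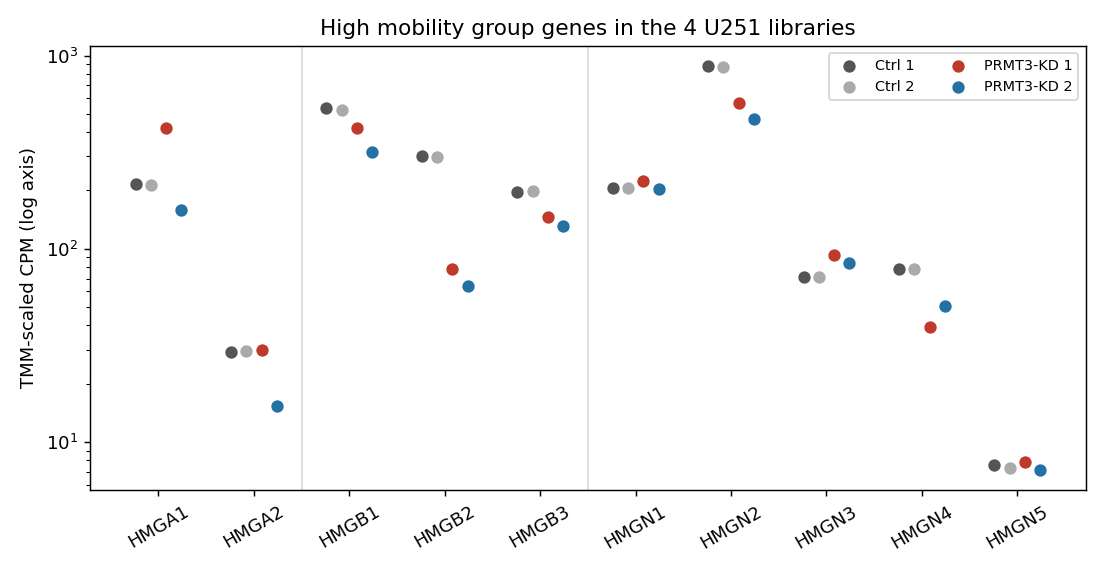
Level of each HMG gene in each library, in TMM-scaled CPM on a log axis, with 1 point per library. The Ctrl points of each gene nearly coincide; HMGB2 fell furthest, and the PRMT3-KD points of HMGA1 lie on both sides of its Ctrl points.

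HMGA1 (ENSG00000137309; GRCh37 chr6:34204650-34214008, + strand), an architectural factor often high in tumors, had 5987 and 5839 counts in Ctrl, and 10663 and 4482 in PRMT3-KD 1 and 2. In CPM these are 216 and 212, then 420 and 158. PRMT3-KD 1 was thus above both Ctrl libraries and PRMT3-KD 2 below both, by 0.97 and -0.44 on the log2 scale relative to the Ctrl mean. The level in PRMT3-KD 1 was 2.66-fold that in PRMT3-KD 2 (log2 PRMT3-KD 2 minus 1 of -1.41, 95% counting interval -1.46 to -1.36, which covers counting error only). HMGA1 was chosen for this difference. The mean of PRMT3-KD, 289 ± 185 CPM (SD, n = 2) against 214 ± 2.69 in Ctrl, describes neither library, and the fitted log2 fold change of 0.43 (SE 0.469) became -0.44 without PRMT3-KD 1 and 0.97 without PRMT3-KD 2.

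HMGA2 (ENSG00000149948; chr12:66218240-66360071, + strand) also differed between the PRMT3-KD libraries, and in the same direction. It had 803 and 810 counts in Ctrl, and 756 and 436 in PRMT3-KD, or 29.0, 29.4, 29.8 and 15.3 CPM. PRMT3-KD 1 was at the Ctrl level and PRMT3-KD 2 was below it by 0.91 on the log2 scale. PRMT3-KD 1 was 1.94-fold PRMT3-KD 2 (log2 difference -0.96, counting interval -1.13 to -0.78), and 4.19% of genes differed as much. The log2 fold change was -0.38 (SE 0.327, adjusted p = 0.456, edgeR), and it was 0.022 without PRMT3-KD 2 and -0.93 without PRMT3-KD 1. The exons of HMGA2 overlap those of HMGA2-AS1 on the other strand, and whether strand was used in counting is not stated. Within each library the ratio of HMGA1 to HMGA2 counts, which no scaling touches, was 7.46 and 7.21 in Ctrl, and 14.1 and 10.3 in PRMT3-KD.

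Apart from HMGA1, HMGA2 was the only 1 of the other 9 genes whose PRMT3-KD libraries stood over 1.5-fold apart, and 13.1% of all genes tested did so. Of these 9 genes, 8 were lower in PRMT3-KD 2 than in PRMT3-KD 1, HMGN4 being the exception, and of all genes tested 7065 were. For the other 8 genes the log2 difference between the PRMT3-KD libraries lay between -0.42 in HMGB1 and 0.37 in HMGN4.

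**Figure D2:**
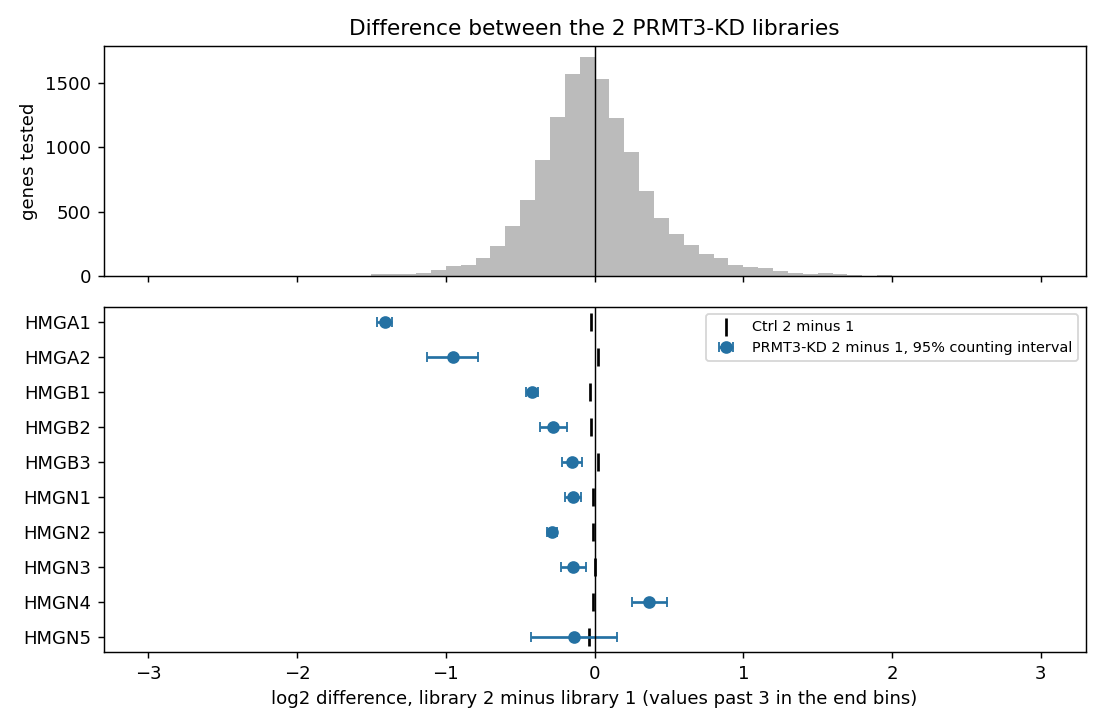
Upper panel, number of genes tested by the log2 difference between the PRMT3-KD libraries (library 2 minus library 1). Lower panel, the same difference for each HMG gene with its 95% counting interval (blue) and that between the Ctrl libraries (black ticks); HMGA1 at -1.41 and HMGA2 at -0.96 lie furthest from 0, and the Ctrl ticks all lie near 0.

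HMGA1 and HMGA2 are known targets of the let-7 microRNAs, which silence them in differentiated cells, so the seed matches are shown. The 8 mature let-7 family members in the RefSeq table share the seed GAGGUAG, in capitals here for let-7a.
hsa-let-7a-5p: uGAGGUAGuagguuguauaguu
HMGA2 site 1, chr12:66357093-66357099: gccaacgttcgatttCTACCTCagc
HMGA2 site 2, chr12:66358328-66358334: ccccactactcaataCTACCTCtga
HMGA2 site 3, chr12:66358740-66358746: ttgacttgcaaagacCTACCTCcag
HMGA2 site 4, chr12:66359593-66359599: aatcaaaacacactaCTACCTCtta
HMGA1 site 1, chr6:34213621-34213627: tcctctgttcacaaaCTACCTCtgg

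The seed match (CTACCTC, in capitals, GRCh37, + strand) occurs 4 times in the 2999 bases of the HMGA2 3′ UTR, all in exon 5, and 1 time in the 3′ UTR of HMGA1, in exon 6. It occurs 0 times in those of the other 8 HMG genes. Of 14294 genes with a 3′ UTR of 50 bases or more, 10.9% have at least 1 match, and 9 genes, HMGA2 among them, have 4 or more. let-7 itself was not measured in these libraries. Of 10 genes listed as the LIN28, let-7 and IGF2BP axis, 6 were tested. LIN28A, LIN28B and TRIM71, which restrain let-7 in embryonic cells, were not in the table. By edgeR 1 of the 6 was called higher and 1 lower, where 4.97% and 5.97% of all genes tested were. DICER1, the nuclease that makes mature microRNAs, was called higher (51.5 ± 1.09 CPM in Ctrl and 82.5 ± 3.72 in PRMT3-KD, SD, n = 2, log2 fold change 0.68, adjusted p = 0.0192, edgeR), and DIS3L2, which degrades uridylated let-7 precursors, was called lower (20.7 ± 0.619 and 9.85 ± 1.99 CPM, -1.07, adjusted p = 0.0277). DESeq2 and limma-voom each called 1 of the 6 higher and 2 lower. Of the 13172 genes tested, they called 842 and 788 higher, and 992 and 902 lower. IGF2BP2, an mRNA-binding protein and known HMGA2 target, had 157, 155, 139 and 164 CPM.

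HMGB2 (ENSG00000164104; chr4:174252527-174255583, - strand) fell further than any other HMG gene. It had 8383 and 8187 counts in Ctrl, and 1981 and 1828 in PRMT3-KD, or 303, 298, 78.0 and 64.3 CPM. Both PRMT3-KD libraries were far below both Ctrl libraries, and they stood close to each other. The level fell 4.22-fold, from 300.1 ± 3.47 to 71.2 ± 9.64 CPM (SD, n = 2; log2 fold change -2.08, SE 0.118, adjusted p = 0.0140, edgeR). The change was -1.94 in PRMT3-KD 1 and -2.21 in PRMT3-KD 2, and -2.10 to -2.07 under the other scalings, filters and tools, with an adjusted p of at most 0.0178. Without Ctrl 1 the adjusted p was 0.0760, and without Ctrl 2 it was 0.0540.

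HMGB1 (ENSG00000189403; chr13:31030841-31191734, - strand), the HMGB protein that also acts as a danger signal outside cells, had 14764 and 14340 counts in Ctrl, and 10715 and 8969 in PRMT3-KD, or 533, 521, 422 and 316 CPM. Both PRMT3-KD libraries were below both Ctrl libraries, and the log2 fold change was -0.52 (SE 0.155, adjusted p = 0.0879, edgeR), which did not pass. The adjusted p ran from 0.0130 in limma-voom to 0.118 with library totals alone, and the fold stayed under 1.5 in each. Without PRMT3-KD 1 the log2 fold change was -0.74 and HMGB1 was called. HMGB1 has 47 annotated pseudogenes, and the 4 in the table held 6 to 27 counts in sum. HMGA1 has 7 annotated pseudogenes, and HMGB2 and HMGN3 have 1 each. How the counting split reads between such copies is not stated. To that extent the counts of HMGB1, HMGB3, HMGN1 and HMGN2 are uncertain, and so are those of HMGA1, HMGB2 and HMGN3.

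HMGB3 (ENSG00000029993; chrX:150148982-150159244, + strand), known in embryos and in blood progenitors, had 5409 and 5458 counts in Ctrl, and 3703 and 3729 in PRMT3-KD, or 195, 198, 146 and 131 CPM. The groups did not overlap. Its adjusted p of 0.0300 (log2 fold change -0.51, SE 0.0835, edgeR) was under 0.05, but the change, 1.42-fold, was under the 1.5-fold limit, so it was not called.

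Within the HMGB genes the balance moved. The ratio of HMGB2 to HMGB1 counts was 0.568 and 0.571 in Ctrl, and 0.185 and 0.204 in PRMT3-KD, a difference of -1.55 on the log2 scale. The exact two-sided permutation p was 0.333, the smallest that 2 libraries against 2 allow. The ratio of HMGB3 to HMGB1 was 0.366 and 0.381 in Ctrl, and 0.346 and 0.416 in PRMT3-KD, so the groups overlapped (exact permutation p = 1).

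HMGN2 (ENSG00000198830; chr1:26798931-26803133, + strand), the highest of the 10 genes per kb, had 24412 and 24032 counts in Ctrl, and 14449 and 13260 in PRMT3-KD, or 881, 874, 569 and 467 CPM. Both PRMT3-KD libraries were below Ctrl. The level fell 1.69-fold, from 877 ± 5.21 to 518 ± 72.1 CPM (SD, n = 2; log2 fold change -0.76, SE 0.117, adjusted p = 0.0263, edgeR). Under the other scalings, filters and tools the log2 fold change was -0.79 to -0.76 with an adjusted p of at most 0.0383, and without a Ctrl library the adjusted p was 0.213 or 0.235. HMGN2 has 38 annotated pseudogenes; the 3 of them in the table held 583, 486, 438 and 382 counts in sum, few beside HMGN2.

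HMGN4 (ENSG00000182952; chr6:26538594-26547161, + strand), a close relative of HMGN2, had 2180 and 2149 counts in Ctrl, and 996 and 1438 in PRMT3-KD, or 78.7, 78.1, 39.2 and 50.6 CPM. It was below Ctrl in both PRMT3-KD libraries and lower in PRMT3-KD 1, the reverse of HMGN2. It fell 1.75-fold, from 78.4 ± 0.390 to 44.9 ± 8.07 CPM (SD, n = 2; log2 fold change -0.80, SE 0.142, adjusted p = 0.0332, edgeR), with an adjusted p of at most 0.0339 under the other scalings, filters and tools and of 0.212 or 0.232 without a Ctrl library. The coding sequences of HMGN2 and HMGN4 are identical at 233 of 270 bases, or 86.3%. No pair among the 10 canonical transcripts shares a stretch of 50 bases (0 for HMGN2 and HMGN4).

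HMGN1 (ENSG00000205581; chr21:40714241-40721573, - strand), the relative of HMGN2 encoded on chromosome 21, had 5730, 5658, 5718 and 5778 counts, or 207, 206, 225 and 203 CPM. The groups overlapped (log2 fold change 0.055, SE 0.0817, adjusted p = 0.665, edgeR). The ratio of HMGN2 to HMGN1 counts was accordingly 4.26 and 4.25 in Ctrl, and 2.53 and 2.29 in PRMT3-KD (log2 difference -0.82, exact permutation p = 0.333, the smallest possible).

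HMGN3 (ENSG00000118418; chr6:79910962-79944406, - strand) was the only 1 of the 10 above Ctrl in both PRMT3-KD libraries. It had 1968 and 1959 counts in Ctrl, and 2348 and 2379 in PRMT3-KD, or 71.0, 71.2, 92.4 and 83.7 CPM. The log2 fold change of 0.31 (SE 0.0835, adjusted p = 0.0712, edgeR) did not pass. HMGN3-AS1 overlaps it on the other strand.

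HMGN5 (ENSG00000198157; chrX:80369198-80457412, - strand), which carries a long acidic tail, was the least counted, with 209, 202, 200 and 203 counts, or 7.54, 7.34, 7.87 and 7.15 CPM. The groups overlapped (log2 fold change 0.012, SE 0.140, adjusted p = 0.961, edgeR).

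**Figure D3:**
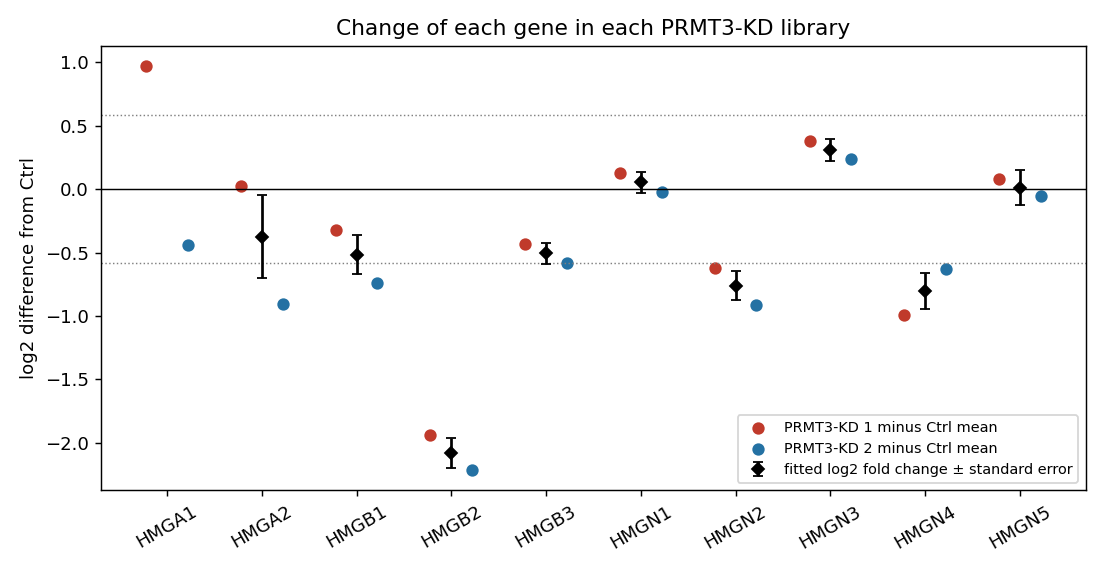
Log2 difference from the Ctrl mean in PRMT3-KD 1 (red) and PRMT3-KD 2 (blue), with the fitted log2 fold change and its standard error (black) for every gene but HMGA1; dotted lines mark 1.5-fold. HMGB2 lies at -1.94 and -2.21, HMGN2 and HMGN4 lie below the lower line in both libraries, and HMGA1 lies at 0.97 and -0.44.

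The libraries of the 2 groups did not overlap for 6 of the 9 genes other than HMGA1, with 5 below Ctrl (HMGB1, HMGB2, HMGB3, HMGN2 and HMGN4) and 1 above (HMGN3); this was true of 67.1% of all genes tested. PRMT3-KD 1 and PRMT3-KD 2 stood on opposite sides of both Ctrl libraries for 3 of these 9 (HMGA2, HMGN1 and HMGN5), where 19.5% of all genes did. For HMGN1 and HMGN5 the distances from Ctrl were small, at most 0.13 on the log2 scale.

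Summed over the family, the 10 genes took 0.255% and 0.252% of all counts in Ctrl, and 0.208% and 0.143% in PRMT3-KD. This sum holds HMGA1, which was chosen for its difference between the PRMT3-KD libraries. In CPM it was 2521 and 2495 in Ctrl, and 2028 and 1496 in PRMT3-KD. Without HMGA1 it was 2305 and 2283 in Ctrl, and 1608.5 and 1338 in PRMT3-KD. The HMGB genes together had 1031 and 1017 CPM in Ctrl, and 645 and 511 in PRMT3-KD. The HMGN genes had 1245 and 1236, then 933 and 812. The HMGB and HMGN sums were both lower in each PRMT3-KD library than in either Ctrl library. The HMGA genes had 245 and 242 CPM in Ctrl, and 449 and 173 in PRMT3-KD, and these sums follow HMGA1. As a share of the family's counts, HMGA1 included, HMGB2 went from 12.0% and 11.9% to 3.84% and 4.30%. On the same measure HMGB1 was at 21.1% and 20.9% in Ctrl, and 20.8% and 21.1% in PRMT3-KD. HMGA1 took 8.57% and 8.51% in Ctrl, 20.7% in PRMT3-KD 1 and 10.5% in PRMT3-KD 2.

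Levels of different genes can be compared only per length. Per kb of the canonical transcript, the Ctrl mean was 452 CPM per kb for HMGN2, 208 for HMGB2, 162 for HMGN1, 112 for HMGA1, 96.6 for HMGB1, 74.2 for HMGN3, 56.1 for HMGB3, 40.4 for HMGN4, 7.10 for HMGA2 and 3.55 for HMGN5. HMGN2 thus led, and HMGA2 and HMGN5 closed the order. With the length of all annotated exons instead, HMGN1 moved from rank 3 to rank 7, at 40.9 CPM per kb, and HMGA2, at 1.94, passed below HMGN5, at 3.12. Neighbours in this order lie further apart than the spread between the Ctrl libraries, but the choice of length changes some of their ranks.

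Some relatives by domain fell too, where edgeR called 4.97% of all genes tested higher and 5.97% lower. Of 28 other genes whose proteins hold an HMG box, 26 were tested, 0 were called higher and 6 lower by edgeR, DESeq2 and limma-voom alike, with 3 higher and 10 lower at an unadjusted p under 0.05 (19.1% and 18.5% of all genes) and a median log2 fold change of -0.26. For the 26 the median log2 difference from the Ctrl mean was -0.40 in PRMT3-KD 1 and -0.14 in PRMT3-KD 2. The 3 that fell most among those of at least 10 CPM were TFAM, which packages mitochondrial DNA (71.6 ± 1.58 CPM in Ctrl and 29.4 ± 4.58 in PRMT3-KD, SD, n = 2, log2 fold change -1.28, adjusted p = 0.0177, edgeR), LEF1, the Wnt pathway's DNA-binding factor (31.6 ± 2.32 and 15.3 ± 2.16 CPM, -1.05, adjusted p = 0.0215), and SSRP1, a subunit of the histone chaperone FACT (513 ± 8.02 and 252 ± 27.6 CPM, -1.03, adjusted p = 0.0172).

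HMGB2 is a known member of the SET complex, which acts on damaged DNA. Of a list of 10 genes for this complex and HMGB partners, 0 were higher and 2 lower (0 and 2 in DESeq2, 0 and 1 in limma-voom). At an unadjusted p under 0.05 these were 0 and 5. For this list and the next, edgeR called 4.97% of all genes tested higher and 5.97% lower, and 19.1% and 18.5% at the unadjusted p. DESeq2 called 992 of the 13172 genes lower, and limma-voom 902. SET, a histone chaperone, had 438 and 434 CPM in Ctrl, and 260.1 and 244 in PRMT3-KD (log2 fold change -0.79, SE 0.0729, adjusted p = 0.0158, edgeR). The other was TREX1, a DNA exonuclease below 10 CPM in PRMT3-KD and named here after its values were seen. Among nucleosome assembly and remodelling genes, 0 of 18 were higher and 2 lower, with 0 and 10 at an unadjusted p under 0.05. The 2 called lower were CHAF1A, which loads histones at replication forks (108 ± 2.64 and 59.5 ± 13.4 CPM, SD, n = 2, -0.86, adjusted p = 0.0401, edgeR), and NASP, a histone H3 and H1 chaperone (296 ± 0.574 and 188 ± 11.1 CPM, -0.65, adjusted p = 0.0196). DESeq2 called 4 of the 18 lower and limma-voom 5, and 0 were called higher in each. The median log2 difference of the 18 from the Ctrl mean was -0.24 in PRMT3-KD 1 and -0.27 in PRMT3-KD 2.

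Linker histones, which compete with HMGN proteins for the nucleosome, were tested in 3 of 7 cases. H1F0, the H1 form of resting and differentiated cells, was called higher, at 50.6 and 49.6 CPM in Ctrl, and 70.8 and 95.8 in PRMT3-KD (log2 fold change 0.73, adjusted p = 0.0492, edgeR). The call was lost when genes with 1 count in any library were tested too. Of 12 genes for HMGB1 receptors and their partners, 6 were tested; TLR4, a receptor for released HMGB1, was called higher, with 858 and 796 counts in Ctrl, and 1828 and 1681 in PRMT3-KD (log2 fold change 1.13, adjusted p = 0.0192, edgeR). AGER, which encodes RAGE, was low and not called, at 1.52 and 1.67 CPM in Ctrl, and 0.551 and 0.810 in PRMT3-KD (log2 fold change -1.22, adjusted p = 0.0644); it falls outside the naming rule and was named after its values were seen. In this list 0 were called lower by edgeR, DESeq2 or limma-voom, with 2 lower at an unadjusted p under 0.05. For both lists, edgeR called 4.97% of all genes tested higher and 5.97% lower, and 18.5% were lower at the unadjusted p.

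Genes of dividing cells were lower alongside HMGB2 and HMGN2. Of 24 proliferation markers, 0 were called higher and 15 lower by edgeR, where 4.97% and 5.97% of all genes tested were. DESeq2 and limma-voom each called 0 higher and 22 lower, where 992 and 902 of the 13172 genes were lower. All 24 were below 0, as were 6523 of the 13172 genes. All 24 also had an unadjusted p under 0.05, where 18.5% of all genes were lower by that measure. The median log2 fold change of the 24 was -0.82. FOXM1, a regulator of mitotic genes, went from 299 ± 0.842 to 102.5 ± 18.5 CPM (SD, n = 2, log2 fold change -1.54, adjusted p = 0.0160, edgeR), and AURKB, a mitotic kinase, and TYMS, thymidylate synthase, had log2 fold changes of -1.29 (adjusted p = 0.0154) and -1.23 (adjusted p = 0.0193). The summed level of the 24 was 5812 and 5785 CPM in Ctrl, and 3477 and 2707 in PRMT3-KD, and the medians in PRMT3-KD 1 and 2 were -0.63 and -1.07. HMGB2 fell by 2.08 on the log2 scale, more than any of these markers, of which the lowest stood at -1.54, and HMGN2 by 0.76. The part of these genes in the HMG values was not tested.

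**Figure D4:**
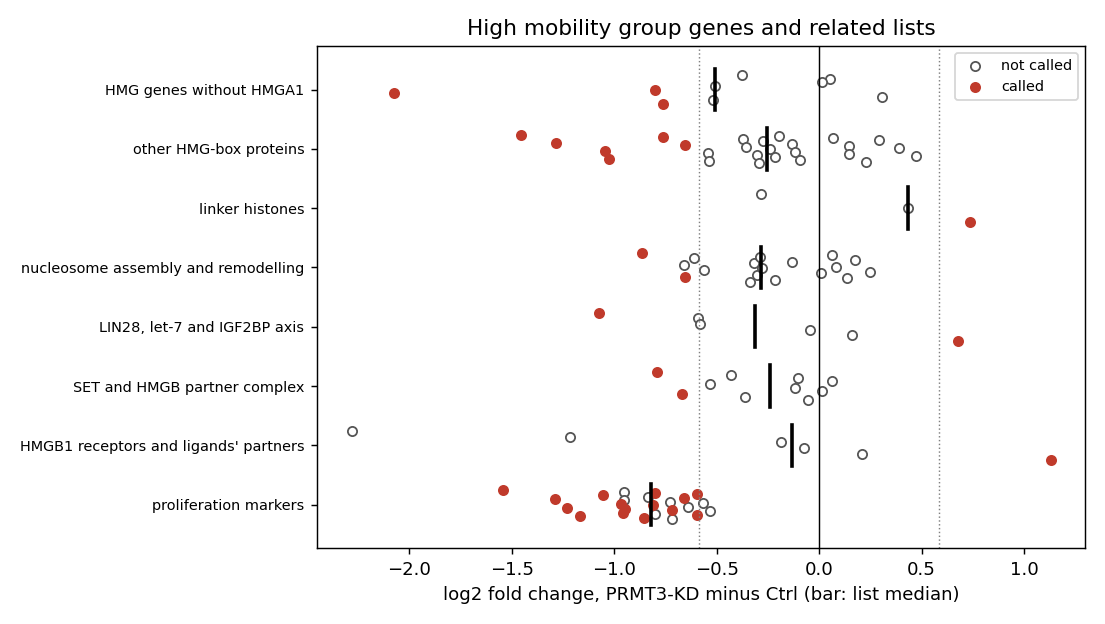
Log2 fold change (PRMT3-KD minus Ctrl) of the 9 HMG genes without HMGA1 and of 7 lists of related genes, 1 point per gene, filled where called, with a bar at each list's median and dotted lines at 1.5-fold. The HMG median is -0.51 and the proliferation median -0.82; HMGB2 at -2.08 lies below every proliferation gene.

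The genes whose levels over the 4 libraries lay nearest to those of HMGA1, among 9458 other genes of at least 10 CPM and by Euclidean distance of log2 CPM centred on the Ctrl mean, were PHLDA1 (distance 0.153), CHAC1 (0.245), DDIT3 (0.251), NR1D1 (0.281) and STX1A (0.283). PHLDA1 had 136, 137, 254 and 110.0 CPM, the same shape as HMGA1 with 1 high PRMT3-KD library and 1 below Ctrl. CHAC1, a glutathione-degrading enzyme, had 10.3, 9.20, 16.6 and 7.15 CPM, and DDIT3, a transcription factor of the endoplasmic reticulum stress response, had 17.6, 17.4, 30.6 and 14.5. The genes nearest to HMGB2 were ADAM15 (0.250), MAPKAP1 (0.289), PGK1 (0.300), E2F2 (0.352) and LMNB2 (0.388). PGK1, the glycolytic phosphoglycerate kinase, had 721, 721, 198 and 190 CPM, and E2F2, an S-phase transcription factor, had 25.7, 25.7, 5.39 and 4.15. These likenesses describe 4 libraries of 2 groups.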

How the data were processed

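RNA of U251 Ctrl and PRMT3-KD cells was sequenced (HiSeq), 2 libraries per group. Per the labels and the study's methods, the authors aligned reads to hg19 with TopHat and deposited 1 table of unnormalized read counts per gene made with Cufflinks; the submitters' processing notes also name CASAVA and DESeq2, and versions and annotation are not given in the sources used here. Of 15576 rows, 1 repeated row was removed. Of the identifiers, 99.9% are in GENCODE 44 on GRCh37, which gave coordinates, transcripts and 3′ UTRs. Libraries were 24804250 to 29756313 counts deep.

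The counts were fitted with edgeR 4.0.16 in R 4.3.3 (filterByExpr with a minimum of 10 and a total of 15, TMM, quasi-likelihood test, no covariate, 13172 genes, Benjamini-Hochberg). Called genes had an adjusted p under 0.05 and over 1.5-fold. The SE given with an edgeR log2 fold change is its absolute value divided by the square root of the test's F statistic, an approximation. Ratios used exact two-sided permutation tests (SciPy 1.17.1). The fits were also run on simulated counts with known changes, and the outcome is not reported here. Alternatives were DESeq2 1.42.0, limma-voom 3.58.1 with group weights, upper-quartile scaling, library totals only, 2 other filters, no fold threshold, the replicate number as a block and each library left out.

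The members and gene lists were chosen with earlier results of these data known. Named genes were the 10 HMG genes, PRMT3, up to 3 called genes of at least 10 CPM per list and direction, and the 5 nearest profiles to HMGA1 and HMGB2. No table of proteins was used here.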

Additional observations from a re-analysis of the deposited data

How the results depend on the processing

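The number of the 9 HMG genes called lower was 3, and 0 were called higher, under DESeq2, limma-voom, upper-quartile scaling, library totals only, both other filters and the replicate block. Without the fold threshold 4 were lower and 0 higher, where 1173 and 1105 of the 13172 genes tested were. With each library left out in turn, 0 to 5 were lower. Of all genes, 1441 were called, 2278 without the fold threshold and 0 to 3066 with a library left out. Leaving out a Ctrl library leaves the spread to the PRMT3-KD pair, and leaving out a PRMT3-KD library leaves it to the Ctrl pair, the lone library being assumed to vary like the others. With library totals only, 40.9% of the called genes were higher, against 45.5%.

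The changes of HMGN5, HMGA2 and HMGN1, none of them called with all 4 libraries, turned sign. HMGN5 (log2 fold change 0.012) was at -0.017 with library totals only and from -0.057 to 0.076 with a library left out, HMGA2 ran from -0.93, where it was called lower, to 0.022, and HMGN1 from -0.018 to 0.12; the cause was not tested.

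With the replicate number as a block, 1464 genes were called and HMGB2, HMGN2 and HMGN4 stayed lower. The numbers were not taken to pair the libraries, because no label gives them that meaning. The differences between libraries 1 and 2 of Ctrl and of PRMT3-KD correlated at 0.0197 over 13172 genes, which share these 4 libraries. This value cannot decide whether the numbers pair them. The Ctrl libraries differed by little beyond counting noise (biological coefficient of variation 0.0105). Under the block, 1 gene of the SET list was lower in place of 2.

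Among the lists, LIN28 axis genes called lower went from 1 to 2 under DESeq2 and limma-voom, and glioma markers from 0 to 2. Nucleosome assembly genes called lower went from 2 to 1 with library totals only.

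At this depth HMGN5, with about 200 counts a library, has the widest counting interval of the 10 genes (log2 PRMT3-KD 2 minus 1 from -0.43 to 0.15). With 2 libraries a group, the permutation test of a ratio cannot pass 0.05.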
